A study of Drosophila melanogaster with 35 samples.

Results

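nej, Tip60 and enok encode histone acetyltransferases, and the chromatin over these 3 genes was profiled by DamID in Drosophila Kc167 cells, a cell line of embryonic origin. Each gene had 1 cDNA probe (LD33277 for nej, LD31064 for Tip60 and GH20156 for enok), so they account for 3 of the 7736 genes named on an array of 9993 probes. They were chosen as acetyltransferase genes that stand out for a heterochromatin protein, so they were selected on their ratios for those proteins. In untreated cells these ratios are given as a description without a test. The label held for enok and for Tip60 but not for nej in untreated cells, as its values below show.

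DamID fuses a protein to the bacterial DNA adenine methyltransferase Dam, compares the adenine methylation it leaves near its binding sites with that left by Dam alone, and reads the ratio on 2-colour arrays. All cells were Kc167 cells transfected with a plasmid for the Dam fusion or, for the other channel, for Dam without a partner. Untreated cells gave 4 arrays each for HP1, HP3, HP4 and HP5 and 3 each for Su(var)3-9, HP6 and the transcription factor Jra, which served as a protein outside heterochromatin. Cells with a knock-down of HP1 or of white, an eye pigment gene used as the control, gave 3 and 3 arrays for HP3 and 2 and 2 arrays for HP6. The promoter of the plasmid, the dose of fusion protein per cell and the extent of the knock-downs were not stated in the labels, and the arrays read DNA, so they carry no measure of HP1 RNA.

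Acetyltransferases attach acetyl groups to lysines of histone tails, a modification found at active promoters and enhancers and scarce in heterochromatin. HP1 binds histone H3 methylated by enzymes such as Su(var)3-9, and it recruits partner proteins to pericentric chromatin, to the small chromosome 4 and to some genes on the arms. nej is the fly CBP, a coactivator of many transcription factors, Tip60 is the catalytic subunit of a chromatin remodelling and acetylation complex, and enok is a MYST family enzyme that acetylates histone H3. The arrays ask where the fusion proteins lie, here on the genes for these enzymes, and say nothing about the enzymes' own binding or amount.

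The values were log ratios of fusion over Dam, deposited by the authors and read here as log2 because nothing in the labels or headers states the base. Arrays carry no read depth, so precision depends on how many arrays a group has, and no label describes replicates as independent cultures. The p-values therefore reflect only array-to-array spread, which may be technical in origin. A pair of arrays went against their labels, the first at the gene of its own fusion protein and the second at the gene of another. On HP3 replicate 2 the probe of Lhr, the gene of HP3, read 0.09, against 3.52 to 6.19 on the other 9 arrays of HP3 fusions and at most 0.24 on 25 arrays of other proteins. On the array labelled HP6 replicate 3 the probe of the HP4 gene read 4.81, inside the 3.71 to 5.01 of the 4 HP4 arrays, while 30 others read at most 1.25. Values for HP3 and HP6 at the 3 genes, their neighbours and the gene lists are given with and without them where the text turns on them.

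enok was high for every heterochromatin protein. Its mean over the 6 group means was 2.76, a value exceeded by 34 probes, and all 6 groups lay above 0. It was 2.78 without the 2 doubted arrays. On the 4 HP1 arrays enok read 3.62, 3.96, 2.62 and 2.09, and between 11 and 105 probes of the same array read higher. On the 3 arrays of Su(var)3-9, the methyltransferase, it read 2.57, 3.05 and 2.18. HP1 and Su(var)3-9 thus overlapped at enok. On the HP4 arrays the ratio was 3.93, 3.96, 3.90 and 3.20, and on the HP5 arrays 3.50, 2.67, 2.70 and 2.61. HP6 gave 2.43, 2.71 and 4.20, the last from the array labelled HP6 replicate 3. HP4 overlapped with HP5 only between 3.20 and 3.50.

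HP3 was the heterochromatin protein with the lowest ratio at enok in untreated cells, with 2.62, -0.79, 1.47 and 1.31. The single negative value came from HP3 replicate 2, where 9770 probes read higher. Without that array the HP3 mean was 1.80 ± 0.72 (SD, n = 3), against 1.15 ± 1.42 (SD, n = 4) with it. Without the array labelled HP6 replicate 3 the HP6 mean at enok was 2.57 ± 0.20 (SD, n = 2), against 3.11 ± 0.96 (SD, n = 3) with it.

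Ordered by their means, the groups at enok ran from HP4 with 3.75 ± 0.37 (SD, n = 4) through HP6, HP1 with 3.07 ± 0.87 (SD, n = 4), HP5 with 2.87 ± 0.42 (SD, n = 4) and Su(var)3-9 with 2.60 ± 0.44 (SD, n = 3) to the knock-down groups and Jra. The ranges of neighbours in this order overlapped throughout the 5 highest groups and between Su(var)3-9 and HP6 after white knock-down. Ranges were apart between HP6 and HP3 after white knock-down, between HP3 after white knock-down and HP6 after HP1 knock-down, and between HP3 after HP1 knock-down and Jra. For Jra enok read 0.06, 0.14 and -0.93, so no Jra array reached the lowest value of HP1, Su(var)3-9, HP4, HP5 or HP6. Against 0 the limma estimate for Jra was -0.26 (95% interval -1.05 to 0.52, Benjamini-Hochberg adjusted p = 0.707), while 10.8% of all probes passed above 0 and 6.3% below. That estimate rested on Jra replicate 3 and was 0.08 without it.

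**Figure D1:**
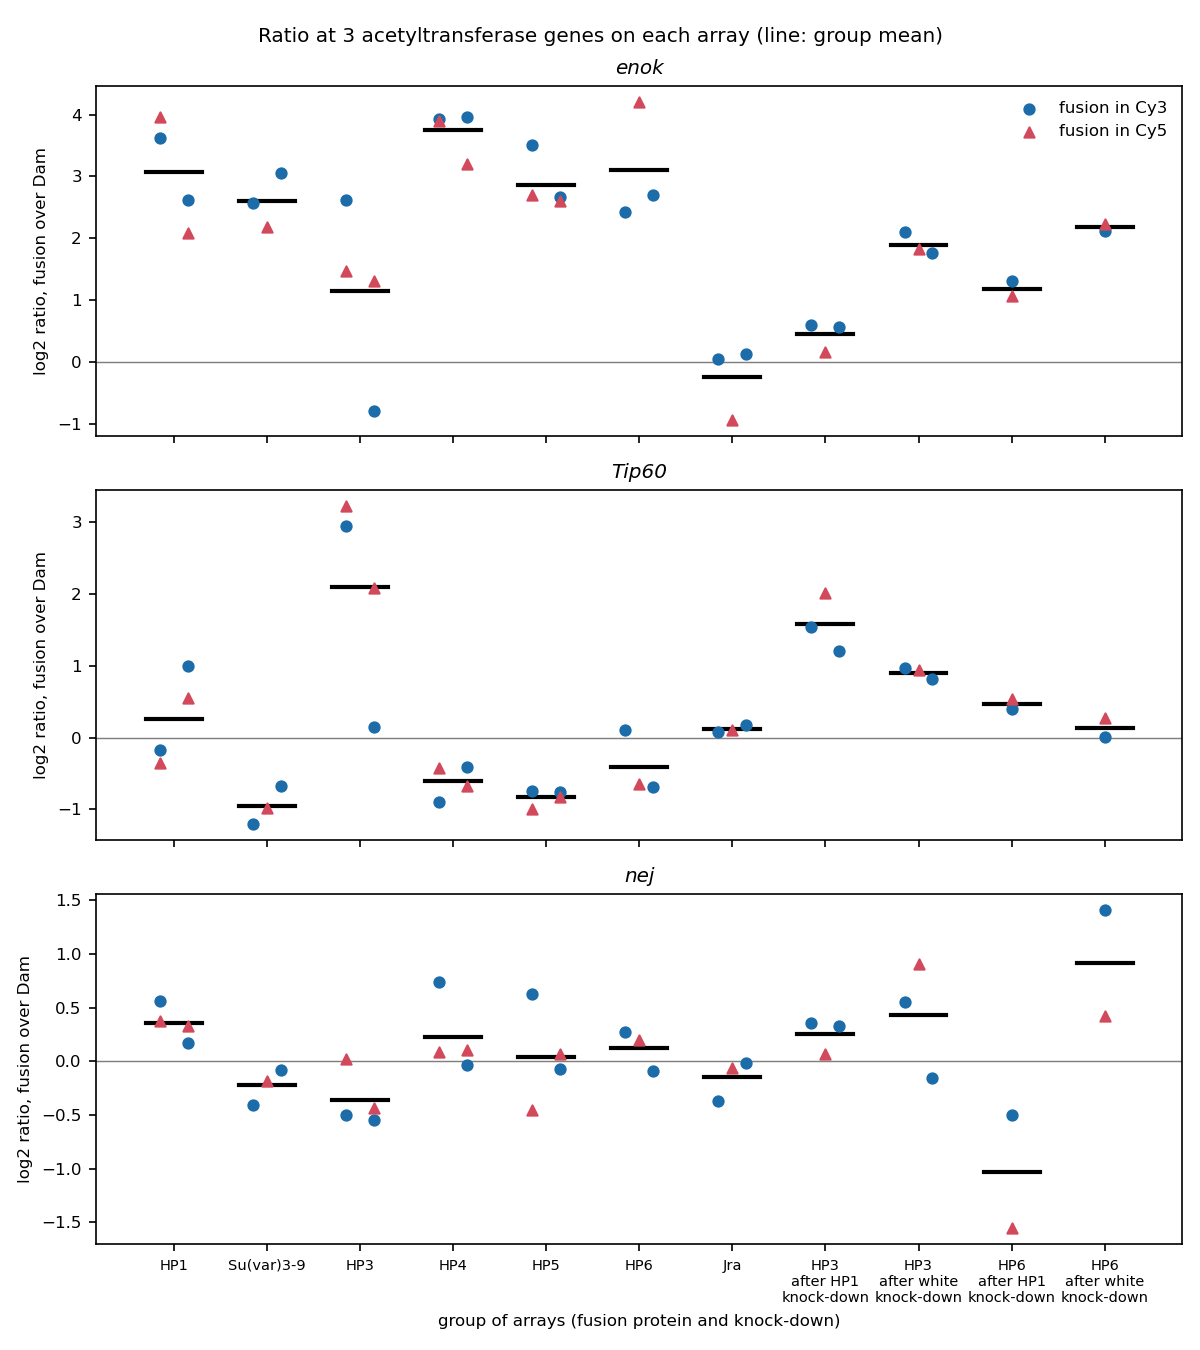
Log2 ratio of Dam fusion over Dam (vertical axis) on each of the 35 arrays at enok, Tip60 and nej, by group (horizontal axis), with the group mean as a line and the dye of the fusion channel as colour and symbol. enok lies above 2 on every HP1, Su(var)3-9, HP4, HP5 and HP6 array, Tip60 is highest on 3 of the 4 HP3 arrays, and nej stays between -0.55 and 0.74 in untreated cells.

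Tip60 was high for HP3 alone among the proteins in untreated cells. On the 4 HP3 arrays it read 2.95, 0.15, 3.23 and 2.09. The low value was again HP3 replicate 2, where 3456 probes read higher, against 16, 6 and 50 on the other 3 arrays. Tip60 thus sat among the top probes of the 3 HP3 arrays whose Lhr probe was high, with a mean of 2.75 ± 0.59 (SD, n = 3) there and 2.10 ± 1.39 (SD, n = 4) over all 4.

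The remaining proteins lay near or below 0 at Tip60. HP1 gave -0.17, -0.35, 1.00 and 0.55. Su(var)3-9 gave -1.21, -0.67 and -0.98. Thus HP1 straddled 0 and Su(var)3-9 lay below it on every array. HP4 gave -0.90, -0.41, -0.43 and -0.68. HP5 gave -0.75, -0.75, -0.9999 and -0.83. The 8 arrays of HP4 and HP5 were all negative. HP6 gave 0.10, -0.68 and -0.64. Jra gave 0.08, 0.17 and 0.11, close to 0 on every array (limma estimate 0.14, adjusted p = 0.817). Averaged over the 6 heterochromatin proteins Tip60 came to -0.07, with 5718 probes above it, and to 0.06 without the 2 doubted arrays, with 4231 above it. Without the array labelled HP6 replicate 3 the HP6 mean at Tip60 was -0.29 ± 0.55 (SD, n = 2), against -0.41 ± 0.44 (SD, n = 3) with it.

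In order of the means at Tip60, HP3 was followed by HP3 after HP1 knock-down with 1.59 ± 0.40 (SD, n = 3) and HP3 after white knock-down with 0.91 ± 0.08 (SD, n = 3). The 3 HP3 groups therefore held the first 3 places of 11. The range of HP3 in untreated cells overlapped that after HP1 knock-down, while the ranges of the 2 knock-down groups of HP3 were apart, as were HP3 after white knock-down and the next group, HP6 after HP1 knock-down with 0.47 ± 0.10 (SD, n = 2). The lowest group was Su(var)3-9 with -0.95 ± 0.27 (SD, n = 3), whose range overlapped that of HP5 with -0.83 ± 0.12 (SD, n = 4).

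nej did not stand out for any heterochromatin protein in untreated cells. HP1 gave 0.56, 0.38, 0.17 and 0.33, the only one of the 6 proteins with every array above 0. Su(var)3-9 gave -0.41, -0.08 and -0.18. HP1 and Su(var)3-9 were thus on opposite sides of 0 without overlap, at sizes under 1. HP3 gave -0.50, -0.55, 0.03 and -0.43. HP4 gave 0.74, -0.03, 0.09 and 0.11. HP5 gave 0.63, -0.07, -0.45 and 0.07. HP4 and HP5 each had 1 array well above its fellows. HP6 gave 0.27, -0.09 and 0.20, and Jra gave -0.37, -0.02 and -0.06 (limma estimate against 0 -0.17, adjusted p = 0.647). The mean over the 6 proteins was 0.03, with 4614 probes above it, near the middle of the array, and it was 0.03 without the 2 doubted arrays too, where the HP3 mean was -0.30 ± 0.29 (SD, n = 3) and the HP6 mean 0.09 ± 0.26 (SD, n = 2). All neighbours in the order of the 11 group means overlapped at nej, from HP6 after white knock-down with 0.91 ± 0.70 (SD, n = 2) to HP6 after HP1 knock-down with -1.03 ± 0.74 (SD, n = 2).

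The white knock-down arrays repeat the HP3 and HP6 profiles in cells where HP1 was not the target. They are other arrays than those of untreated cells, but the genes were chosen with results of the whole series known, so a p for them is no independent support. At enok, HP3 after white knock-down read 2.11, 1.83 and 1.76, and HP6 after white knock-down read 2.13 and 2.24. All 5 values lay above 0, and the limma estimates were 1.88 (95% interval 1.10 to 2.67, adjusted p = 0.00101) for HP3 and 2.18 (95% interval 1.22 to 3.14, adjusted p = 0.00283) for HP6. Over all probes 7.35% passed above 0 and 2.88% below for HP3, and 4.21% and 0.765% for HP6. With either HP6 array left out the estimate at enok was about as large, 2.30 without replicate 1 and 2.06 without replicate 2, and did not pass (limma adjusted p = 0.126 and 0.134). In those fits the lone array is assumed to vary like the other groups.

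At Tip60, HP3 after white knock-down read 0.97, 0.94 and 0.82, with a limma estimate of 0.93 (95% interval 0.29 to 1.57, adjusted p = 0.0560), just short of the threshold of 0.05. Without the 2 arrays that went against their labels the same comparison gave 0.91 with adjusted p = 0.00390, while the limma adjusted p lay between 0.00112 and 0.134 over all settings that kept the 3 arrays and between 0.175 and 0.269 with 1 of them left out. HP6 after white knock-down read 0.00 and 0.27 at Tip60, with an estimate of 0.14 (95% interval -0.65 to 0.92, adjusted p = 0.937). Tip60 was thus above 0 on every HP3 array and near 0 for HP6. At nej, HP3 after white knock-down read 0.55, 0.91 and -0.15, with an estimate of 0.41 (95% interval -0.01 to 0.84, adjusted p = 0.213). HP6 after white knock-down read 1.41 and 0.42 at nej, both above the 3 values of HP6 in untreated cells.

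The comparison of HP1 with white knock-down asks whether HP3 and HP6 stay on these genes when HP1 is depleted. For HP3, enok read 0.61, 0.17 and 0.57 after HP1 knock-down, all below the lowest white value of 1.76. The limma difference was -1.45 (SE 0.54, 95% interval -2.56 to -0.34), with adjusted p = 0.106 over all probes. It did not pass in that fit, but gave adjusted p = 0.00532 without the 2 arrays that went against their labels and 0.00107 in a fit to the 6 arrays compared. With 1 of the 6 left out the limma adjusted p lay between 0.157 and 0.403. The exact two-sided permutation p was 0.1, the smallest that 3 against 3 arrays allow. The difference was -1.34 on arrays with the fusion in Cy3 and -1.66 with it in Cy5, so both dye orientations gave the same sign. In this comparison 7.43% of all probes passed above 0 and 0.443% below.

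Tip60 lay on the opposite side for HP3. It read 1.55, 2.01 and 1.21 after HP1 knock-down, all above the highest white value of 0.97. The limma difference was 0.68 (SE 0.44, 95% interval -0.22 to 1.59, adjusted p = 0.465), and the exact permutation p was again 0.1. In the fit to the 6 arrays compared the limma adjusted p was 0.0234, but it was 0.178 without the 2 doubted arrays, 0.787 with a difference of 0.47 when arrays were scaled to equal spread, and 0.394 to 0.919 with 1 array left out. The sign was the same in both dye orientations, with 0.49 in Cy3 and 1.07 in Cy5. nej read 0.36, 0.07 and 0.33 for HP3 after HP1 knock-down, within the range of the white arrays. Its limma difference was -0.18 (SE 0.29, 95% interval -0.78 to 0.42, adjusted p = 0.807, exact permutation p = 0.6), with 0.14 in Cy3 and -0.84 in Cy5.

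For HP6, nej read -0.50 and -1.56 after HP1 knock-down against 1.41 and 0.42 after white knock-down. The 2 pairs of values lay on opposite sides of 0, and the fitted difference was -1.94. nej stood out only in contrasts that use these HP6 arrays, so this value is taken as one that chose the gene and is given without a p. The difference was -1.91 in Cy3 and -1.98 in Cy5. No probe passed above 0 in this comparison (0%) and 0.0201% passed below, which is 2 probes, CG1910 with a limma difference of -2.72 and nej itself, while 173 probes had an unadjusted p under 0.05. Nothing is read from that count for nej. Without the 2 arrays that went against their labels 0 probes passed.

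enok read 1.31 and 1.06 for HP6 after HP1 knock-down, both below its white values of 2.13 and 2.24. The limma difference was -0.997 (SE 0.66, 95% interval -2.35 to 0.36, adjusted p = 1.00), and the exact permutation p was 0.333, the smallest that 2 against 2 arrays allow. Tip60 read 0.40 and 0.54, above its white values, with a difference of 0.33 (SE 0.54, 95% interval -0.78 to 1.44, adjusted p = 1.00, exact permutation p = 0.333). Whether the response to HP1 knock-down differed between HP3 and HP6 was tested directly in limma. The difference was -0.45 at enok (95% interval -2.20 to 1.30, adjusted p = 1.00) and 0.35 at Tip60 (95% interval -1.08 to 1.78, adjusted p = 1.00). At nej it was 1.76, given without a p for the reason above. No probe passed in that comparison, 0% above 0 and 0% below, with 499 at an unadjusted p under 0.05.

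**Figure D2:**
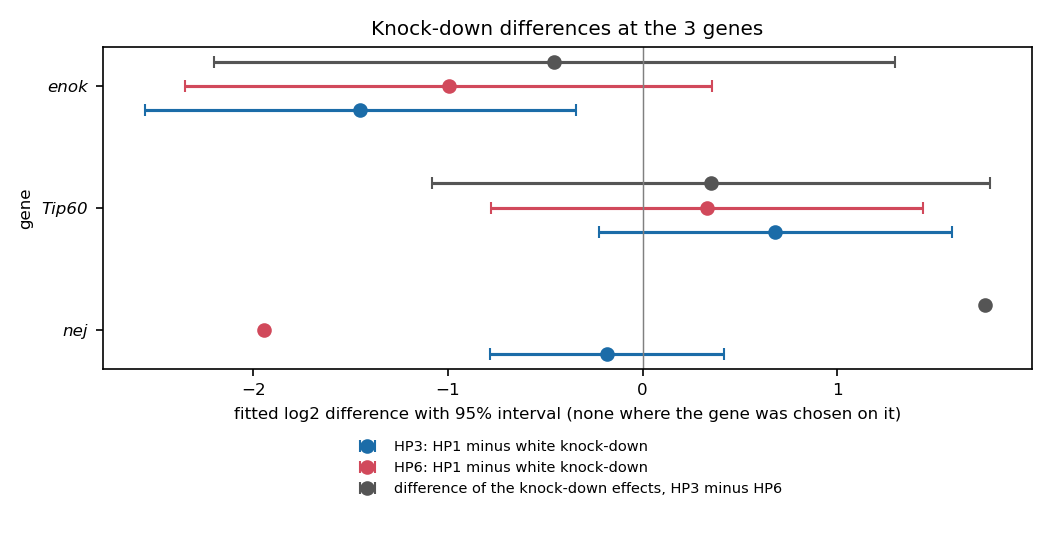
Fitted log2 difference (horizontal axis) between HP1 and white knock-down with each of the fusions HP3 and HP6, and the contrast of those 2 values, at enok, Tip60 and nej (vertical axis). Bars are 95% intervals, left out for the 2 values that chose nej, and HP3 at enok is the only drawn interval that does not reach 0.

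Dam methylation reaches past the binding site, so genes beside each other on a chromosome can share a signal. Gene order was taken from the Release 6 assembly, in which enok is gene 3455 of 3649 on arm 2R with 194 genes beyond it, Tip60 is gene 460 of 2705 on the X chromosome and nej gene 1115. No coordinates are given because no label or header names the genome build of the array. The 5 nearest measured genes on each side were described for each member.

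The 2 nearest measured genes before enok were high with it. gek, a kinase related to effectors of the small GTPase Cdc42, is the adjacent gene and had a mean over the 6 proteins of 2.95. snama, a ubiquitin ligase gene next to gek, had 2.17. The other 8 neighbours of enok lay between -0.08 and 0.50, including CG16786 with 0.13 beyond snama and CG3253 with -0.08 on the far side of enok. The high ratios thus spanned 3 consecutive genes. For HP3 in untreated cells gek averaged 1.90 ± 0.35 (SD, n = 3), with no value on HP3 replicate 2, and snama averaged 0.88 ± 0.78 (SD, n = 4), or 1.13 ± 0.75 (SD, n = 3) without that array.

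After HP1 knock-down HP3 fell at gek, from 2.16 ± 0.23 (SD, n = 3) to 0.55 ± 0.25 (SD, n = 3), a limma difference of -1.61 with adjusted p = 0.00209. At snama the HP3 means were 1.69 ± 0.42 (SD, n = 3) and 0.48 ± 0.18 (SD, n = 3), with a difference of -1.20 and adjusted p = 0.214. All 3 genes of the stretch therefore had lower HP3 means after HP1 knock-down, and gek alone passed in the fit to all arrays. gek has no value on HP3 replicate 2, which enok and snama carry in that fit. Without the 2 doubted arrays enok passed too (limma adjusted p = 0.00532), so the calls do not rank gek above enok. For HP6 the differences were -1.07 at gek and -0.69 at snama, both with adjusted p = 1.00 in limma. gek and snama were picked out after their values were seen.

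The measured genes before Tip60 shared its HP3 signal. dgt4, which encodes a subunit of the augmin complex of the spindle, averaged 1.75 ± 0.70 (SD, n = 4) for HP3. Nsun2, an RNA methyltransferase gene, averaged 2.55 ± 0.81 (SD, n = 4), with a lowest array of 1.57. cib, which encodes an actin-binding protein, averaged 1.53 ± 1.22 (SD, n = 4) and read -0.14 on HP3 replicate 2. Without that array the HP3 means were 1.97 at dgt4, 2.88 at Nsun2 and 2.09 at cib. The next gene, brn, averaged 0.09. On the other side the 2 probes of tyf read 0.84 and 1.43, and GlcAT-I 0.14. Unlike Tip60, the same tyf probes also averaged 0.74 and 0.58 for HP1 and 0.86 and 0.19 for HP4. Nsun2 also averaged 0.88 for HP1, with arrays from 0.68 to 1.11, while dgt4 averaged 0.06 and cib 0.34. For HP4 dgt4 averaged 0.56, Nsun2 -0.26 and cib -0.24. In untreated cells the HP3 signal thus covered 5 measured genes in a row from cib to tyf. There dgt4 and Nsun2 were above 1 on all 4 HP3 arrays, HP3 replicate 2 included. The edges did not recur after white knock-down. HP3 then averaged 0.29 at cib and 0.60 at brn, and 0.60 and 0.57 at tyf and 0.35 at GlcAT-I.

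The neighbours of Tip60 from cib to tyf did not pass in the HP3 knock-down comparison. The limma differences were 0.75 at dgt4 (adjusted p = 0.248), 0.46 at Nsun2 (adjusted p = 0.667) and 0.74 at cib (adjusted p = 0.398). At the 2 probes of tyf they lay on the other side of 0, with -0.45 and -0.31 (limma adjusted p = 0.511 and 0.698). brn, just outside the stretch in untreated cells, rose by 1.17 (limma adjusted p = 0.00300) to 1.78. The 10 measured neighbours of nej had means over the 6 proteins between -0.73 and 0.58. Their HP6 differences between HP1 and white knock-down lay between -0.68 and 0.21. The -1.94 of nej is taken as a value that chose the gene, so nothing is read from its distance to them. Hex-A, a hexokinase gene 5 measured genes before nej, was high for HP6. In untreated cells it read 2.50, 1.89 and, on the array labelled HP6 replicate 3, -0.44. After white knock-down it read 2.35 and 2.42, and after HP1 knock-down 1.69 and 1.72. All arrays of HP6 fusions but the doubted one thus lay above 1 at Hex-A, and the 4 measured genes between it and nej averaged between -0.60 and -0.14 for HP6 in untreated cells. Hex-A was picked out after its values were seen. One of 2 probes of Gga, a clathrin adaptor gene, rose for HP3 after HP1 knock-down by 1.04 (limma adjusted p = 0.00708), and the other probe had a difference of 0.96 (adjusted p = 0.243).

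**Figure D3:**
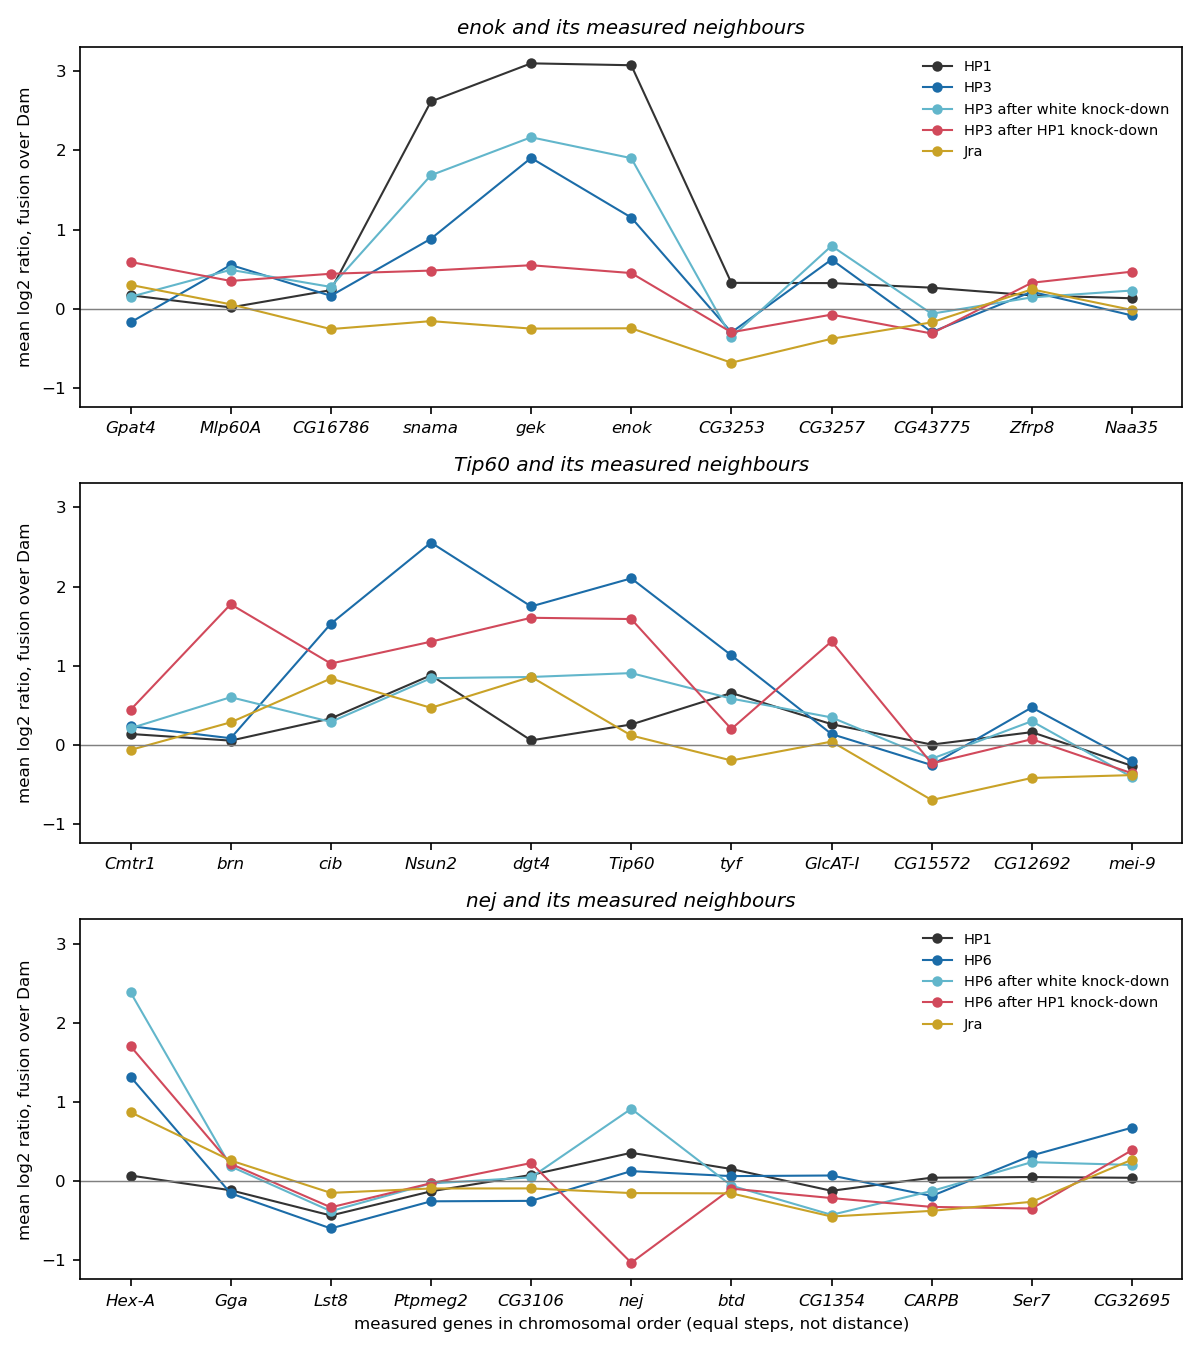
Mean log2 ratio of fusion over Dam (vertical axis) at enok, Tip60, nej and the 5 nearest measured genes on each side in chromosomal order (horizontal axis, equal steps), for HP1, Jra and, in the panels of enok and Tip60, the 3 HP3 groups or, in the panel of nej, the 3 HP6 groups, with probes of one gene averaged. HP1 is high over snama, gek and enok, and HP3 in untreated cells is high from cib to tyf. In the panel of nej only Hex-A rises above 1.

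The genes most like each member were taken as those with the highest Pearson correlation of their 11 group means, which share arrays and are a description only. For enok these were Dhc64C, a dynein heavy chain, snama, vir, a component of the RNA adenine methylation machinery, cyst and shtd, each with r = 0.99, and 219 of 9933 probes exceeded 0.9. The profile of enok was thus held by many probes on several chromosomes. For Tip60 they were ball, a histone kinase gene, with r = 0.94, Nsun2 with 0.93, mthl9 and kin17 with 0.92 and CG32345 with 0.89, and 4 probes exceeded 0.9. For nej they were CG2186 with 0.92, CG10508 with 0.84, CG8179 with 0.81, CG1910 with 0.79 and mira with 0.78, and 1 probe exceeded 0.9. Each of these genes had a lower HP6 mean after HP1 than after white knock-down. The HP6 means were -1.98 against 0.67 at CG2186 and -0.50 against 2.17 at mira. Those means entered the correlation, so nothing is read from them. Among the members r was -0.62 between enok and Tip60, 0.33 between enok and nej and -0.09 between Tip60 and nej.

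Other acetyltransferase genes showed no ratio near that of enok. enok was chosen because it stands out among them, so that comparison is a description only. Of 15 listed genes 10 were measured, and their highest means over the 6 proteins were 0.28 at eco, a cohesin acetyltransferase, 0.24 at vnc and 0.20 at Naa40, both N-terminal acetyltransferases, with the lowest, -0.66, at Naa20A. Subunits of the Tip60 complex, 12 measured of 17 listed, had their highest means at Gas41 with 0.35, rept with 0.33 and pont with 0.27, the last pair being ATPases, and their lowest at dom, the remodelling ATPase, with -0.22. A gene with several probes was counted by its probe with the lowest p.

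For HP1 no other acetyltransferase and 1 Tip60 complex gene passed above 0 in limma, none below, against 8.48% of all probes above and 2.95% below. At an unadjusted limma p under 0.05 there were 1 and 5 genes, against 2186 of 9934 probes. For Su(var)3-9 1 gene of each list passed above 0 and none below, against 15.8% and 17.4%. For HP3 no other acetyltransferase passed, and 2 Tip60 complex genes passed above 0, against 4.38% and 2.31%. Of the acetyltransferases 1 had an unadjusted limma p under 0.05 for HP3, against 2185 of 9934 probes. The HP3 median of the complex was 0.20 against 0.02 over all probes. Without the 2 doubted arrays 0 of the 12 complex genes passed for HP3, against 4.9% of all probes above and 4.2% below. An unadjusted limma p under 0.05 was then reached by 3 of the 12, against 2324 of 9929 probes. The median was 0.11 against 0.01.

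For HP4 2 other acetyltransferases passed above 0 and 3 below, and 6 Tip60 complex genes passed above and 1 below, against 19.7% and 21.8% of all probes. The HP4 medians were 0.07 for the acetyltransferases and 0.39 for the complex, against -0.03 over all probes. For HP5 the counts were 1 above and 2 below, and 2 above and 0 below, against 18.4% and 18.7%. For HP6 no gene of either list passed in limma, against 7.05% and 3.33% of all probes. At an unadjusted limma p under 0.05 there were 0 and 2 genes, against 2416 of 9934 probes. The same counts came without the 2 doubted arrays, against 4.78% and 1.2%, and 1772 of 9929 probes at the unadjusted p. In both knock-down comparisons no gene of the 2 lists passed in limma, and 1 of each had an unadjusted p under 0.05 for HP3 and 0 for HP6. Of all 9934 probes 1826 reached that unadjusted p for HP3 and 173 for HP6. Over all probes 7.43% passed above and 0.443% below for HP3, and 0% and 0.0201% for HP6.

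Of 28 genes of the SAGA, ATAC, enok and MSL complexes 19 were measured, and Hcf, a host cell factor on chromosome 4, had the same mean over the 6 proteins as enok, 2.76. The next were msl-2, a dosage compensation gene, with 1.07 and Taf10b with 0.48, and the lowest was Ada2b with -0.78. Hcf read 2.51 for HP3 after white knock-down and 1.65 after HP1 knock-down, a limma difference of -0.87 with adjusted p = 0.333. Atac3 was the 1 gene of this list that passed for HP3, rising by 0.78 after HP1 knock-down (limma adjusted p = 0.0387), and 1 of 19 is near the 7.43% of all probes that passed above. In untreated cells the genes of this list that passed were 3 above and 0 below for HP1, 5 and 4 for Su(var)3-9, 3 and 1 for HP3, 6 and 7 for HP4, 4 and 6 for HP5 and 1 and 3 for HP6. Over all probes 8.48% passed above and 2.95% below for HP1, 15.8% and 17.4% for Su(var)3-9 and 4.38% and 2.31% for HP3. The shares were 19.7% and 21.8% for HP4, 18.4% and 18.7% for HP5 and 7.05% and 3.33% for HP6. Without the 2 doubted arrays the genes that passed were 3 and 1 for HP3 and 1 and 1 for HP6, against 4.9% and 4.2% and 4.78% and 1.2% of all probes.

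The deacetylase genes, 6 measured of 10 listed, had highest means of 0.33 at Sirt7, 0.10 at Sirt2 and 0.03 at HDAC4 and the lowest, -0.19, at HDAC1. None passed in a limma knock-down comparison, where 7.43% of all probes passed above for HP3 and 0% for HP6. There 0 had an unadjusted limma p under 0.05, against 1826 of 9934 probes for HP3 and 173 for HP6. In untreated cells 2 passed above 0 for HP1, 1 above and 1 below for HP4, and none for Su(var)3-9, HP3, HP5 or HP6. For each of these 4 proteins 1 gene had an unadjusted limma p under 0.05. That p was reached by 4376, 2185, 4601 and 2416 of all 9934 probes. Over all probes 8.48% passed above and 2.95% below for HP1, and 19.7% and 21.8% for HP4. The shares were 15.8% and 17.4% for Su(var)3-9, 4.38% and 2.31% for HP3, 18.4% and 18.7% for HP5 and 7.05% and 3.33% for HP6. Genes for acetyl-lysine readers, 8 measured of 12, had highest means of 0.83 at BRWD3, 0.71 at brm, a remodelling ATPase, and 0.18 at polybromo, and the lowest, -0.62, at E(bx). E(bx), the large subunit of the NURF remodeller, rose for HP3 after HP1 knock-down by 1.75 (limma adjusted p = 0.00195) at 1 of its 2 probes, the 1 call among 8 genes where 7.43% of all probes passed above. Averaged over its 2 probes E(bx) read 0.24 for HP3 after HP1 knock-down and -0.65 after white knock-down. The call thus rested on 1 probe, and the other rose far less, if at all. In untreated cells the readers that passed were 2 above and 0 below for HP1, 0 and 1 for Su(var)3-9 and 0 and 0 for HP3. They were 2 and 1 for HP4, 1 and 2 for HP5 and 0 and 1 for HP6. For HP3 2 readers had an unadjusted limma p under 0.05, against 2185 of 9934 probes. The shares over all probes are those given for the deacetylases. Without the 2 doubted arrays the readers that passed were 0 and 2 for HP3 and 0 and 0 for HP6. An unadjusted limma p under 0.05 was then reached by 4 and 3 readers, against 2324 and 1772 of 9929 probes. Over all probes 4.9% then passed above and 4.2% below for HP3, and 4.78% and 1.2% for HP6.

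**Figure D4:**
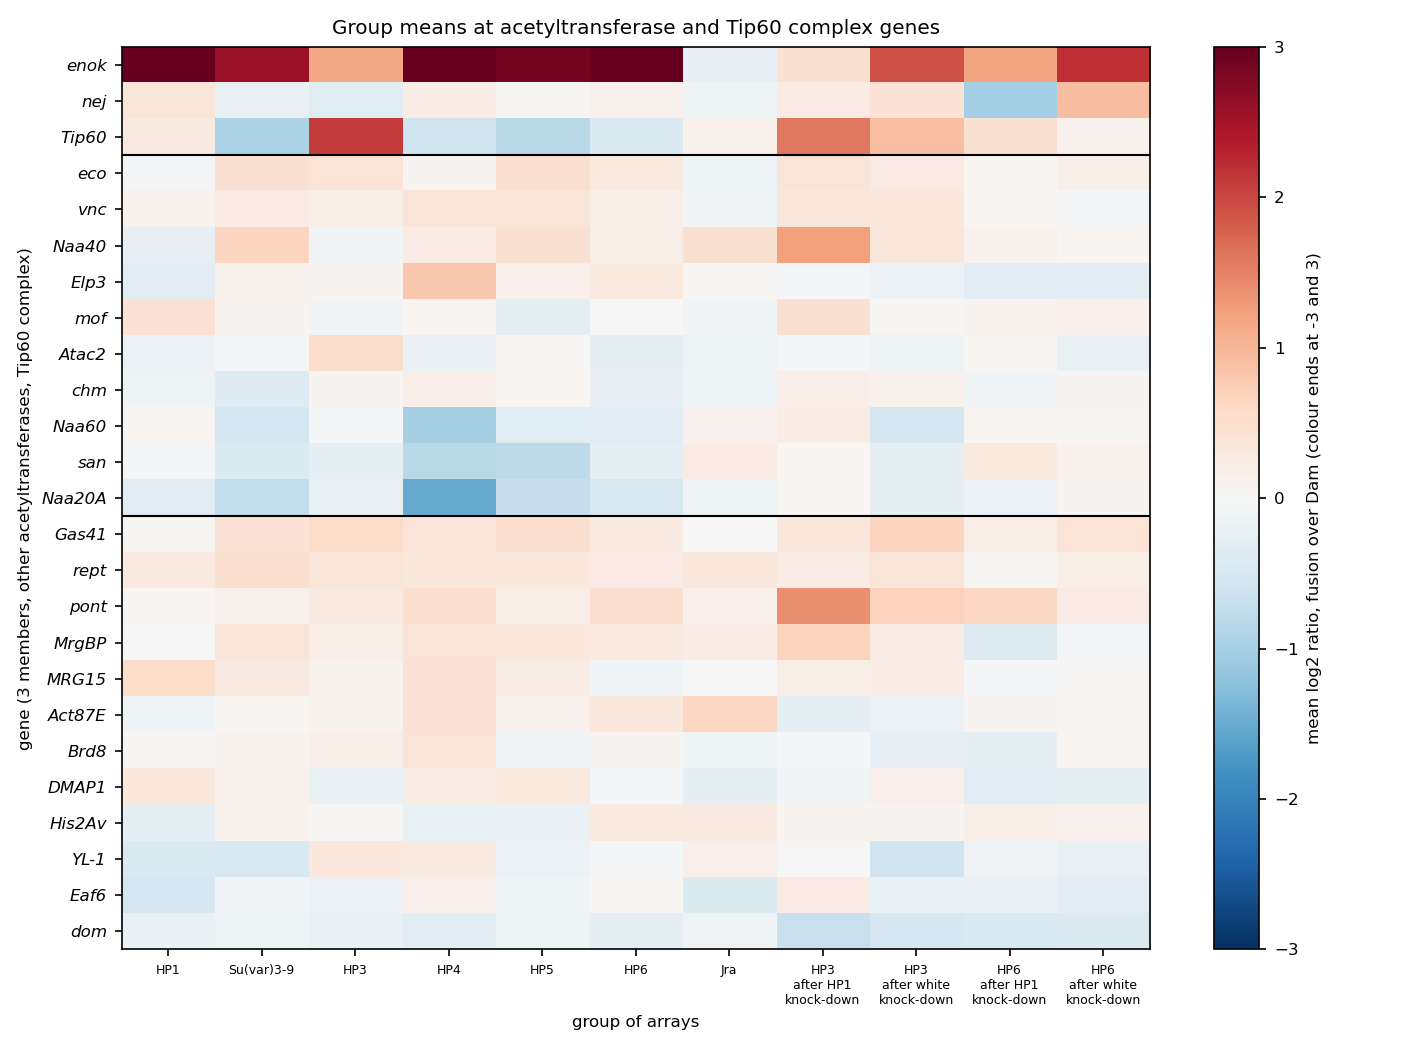
Mean log2 ratio of fusion over Dam (colour, ending at -3 and 3) in the 11 groups (horizontal axis) for the 3 members, the 10 other acetyltransferase genes and the 12 Tip60 complex genes that were measured (vertical axis). enok is dark red for all heterochromatin proteins but HP3, Tip60 is red in the HP3 groups, and the genes below the first line lie between -1.50 (Naa20A for HP4) and 1.39 (pont for HP3 after HP1 knock-down).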

How the data were processed

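DamID log ratios of 35 arrays of Kc167 cells were analysed. The authors deposited 1 log ratio of fusion over Dam per probe and array, read here as log2; the range of -9.40 to 10.83 excludes base 10 but not base e, which would alter printed sizes and no test. Deposited columns were already centred. The labels and headers do not state background correction, normalization or genome build, and intensities were not analysed here. Of 9993 probes 8682 have 1 gene, 298 several and 1013 are unnamed here.

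Each array was centred on its median. limma 3.58.1 in R 4.3.3 fitted 1 mean per group and a dye term to all arrays (23 residual degrees of freedom, prior 6.91). A probe needed values on 2 arrays of each group, leaving 9934 and dropping 59. Tests were two-sided with Benjamini-Hochberg adjustment over all probes and a threshold of 0.05. Exact permutation of array labels was run beside the knock-down fits, and the fit was checked on simulated data.

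The members and lists were chosen with earlier results of these data known. Named genes are all members, the 5 most alike probes and 5 nearest measured genes on each side, the 3 highest and 1 lowest of each list, and any list gene past a knock-down threshold. The test of nej for HP6 had been planned. It passed, as 1 of 2 probes, and its p was dropped after that was seen, because nej stands out only in contrasts with those HP6 arrays and was probably chosen on it. For the same reason the nej values of HP6 after white knock-down and of the difference between knock-downs have no p. Alternatives dropped the dye term or the centring, scaled arrays to equal spread, or used complete probes, the arrays compared, the replicate number as a block, no doubted arrays and each array left out. No centring for the levels, and lists, neighbours and means over the 6 proteins without the doubted arrays, were added after the data were seen.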

Additional observations from a re-analysis of the deposited data

Results flagged for a closer look

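Arrays that stand apart were looked for in the 12 combinations of gene and protein with 4 arrays, where Dixon's critical ratio of gap to range is 0.829 and chance alone gives about 5%. For HP4 at enok the lowest array, 3.20, lay apart from the other 3, with a ratio of 0.923. For HP5 at enok the highest array, 3.50, lay apart from its fellows, with a ratio of 0.896. These are 2 of 12 combinations, and both arrays lay on the same side of 0 as the rest of their group.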

How the results depend on the processing

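Of 261 values under alternatives for 36 results, 249 counted as unchanged. For a tested result that means the same direction and the same side of the threshold. The levels, and the nej values given without a p, have no threshold. They counted as unchanged where the value moved by less than the SD between arrays. In the fit without the 2 doubted arrays, HP3 between HP1 and white knock-down at enok (-1.45) and HP3 after white knock-down at Tip60 (0.91) passed. In the fit to the arrays compared, the same HP3 differences at enok (-1.45) and Tip60 (0.68), HP3 after white knock-down at Tip60 (0.92) and nej (0.55), and Jra at enok (-0.42, adjusted p = 0.00365 in limma) passed. The cause was not tested. That fit could not be made for HP6 after white knock-down, whose 2 arrays leave no residual degrees of freedom once the dye term is included. With 1 array left out, HP6 after white knock-down at enok ranged from 2.06 to 2.30 and lost its call both times, the lone array being assumed to vary like the other groups, the HP3 knock-down difference at nej ranged from -0.50 to 0.11 and turned sign without HP3 after white knock-down replicate 2, and Jra at enok ranged from -0.44 to 0.08 and turned sign, to 0.085, without Jra replicate 3. Scaling arrays to equal spread moved HP4 at enok to 3.25.

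In deviations from the group means, same-numbered arrays of the 2 HP3 knock-downs correlated at 0.0932, 0.0742 and 0.235. Those of HP6 correlated at 0.159 and 0.150. Differently numbered arrays correlated at -0.211 to 0.0851 for HP3 and at -0.158 and -0.151 for HP6. Whether equal numbers mark pairs is not settled by these values, and the main fit paired no arrays of either protein. With the number as a replicate block, the HP3 difference at enok was -1.45 with adjusted p = 0.0939 in limma, and no tested call at a member changed, while the 2 HP6 calls, nej and CG1910, fell to 0.

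Counts of probes that passed varied more than values at the members. Over all settings they ran from 180 to 1693 above and 3 to 706 below for the HP3 knock-down, 0 to 22 and 0 to 9 for HP6, 0 to 137 and 0 to 18 for their difference, 326 to 1883 and 64 to 1693 for HP3 after white knock-down, 43 to 1011 and 10 to 653 for HP6 after white knock-down, and 517 to 2326 and 161 to 2151 for Jra. Signal over background is unknown.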
